A study of Mus musculus with 2 samples.

Results

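Chemokines, interleukins and their receptors were compared between dorsal skin of aged C57BL/6 mice irradiated with red light and dorsal skin of untreated aged mice. The genes are those in the authors' table whose symbol begins with Ccl, Cxcl, Xcl, Cxcr, Xcr or Ackr, with Ccr and a digit, or with Il and a digit, which gave 52 of 4183 rows. They comprise 15 chemokine ligands, 9 chemokine receptors, 11 interleukins and 17 interleukin receptors or receptor subunits. The red light mice received 8 J/cm² once a day for 28 days, the untreated mice received no treatment, and all were 18 to 20 months old. GEO describes 1 sample per group, and the table gives the authors' mean FPKM per group (fragments scaled to transcript length and library size), so no spread between animals is available, no test is possible and no p-value is given. The number of mice behind each mean is not stated, and read depth is unknown. The table lists genes whose means differ by about 2-fold or more, so a gene outside it is not described here; of 143 protein-coding genes in RefSeq (GRCm38.p6) whose symbol meets the same rule, 51 (35.7%) were found in the table by symbol, against 18.6% of all protein-coding symbols there, and Il36g was matched through a synonym.

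Chemokines are small secreted proteins that guide leukocytes along gradients by binding G protein-coupled receptors, while atypical chemokine receptors bind the same ligands and remove or store them without the usual signal. Most interleukins act through paired receptor chains that signal through JAK and STAT proteins, or, in the interleukin-1 and interleukin-17 families, through adaptors that lead to NF-kappaB. In skin, keratinocytes, resident macrophages, lymphatic vessels and T cells all make members of both families, and decoy receptors limit several of them.

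Almost all listed members were lower after red light. Of the 52, 49 were lower, against 61.3% of all rows of the table, and 3 were higher, against 38.7% of all rows. The median member was 3.40-fold lower (log2 −1.77), beside a median log2 ratio of −1.21 over all rows. Among lower rows alone, the median was 3.52-fold for the 49 members and 3.09-fold for the whole table. At least 4-fold lower were 22 members, or 42.3%, against 18.9% of all rows. Among lower rows alone these shares were 44.9% of the members and 30.7% of the whole table. Fewer cells of a type and less RNA per cell cannot be told apart in bulk tissue.

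**Figure D1:**
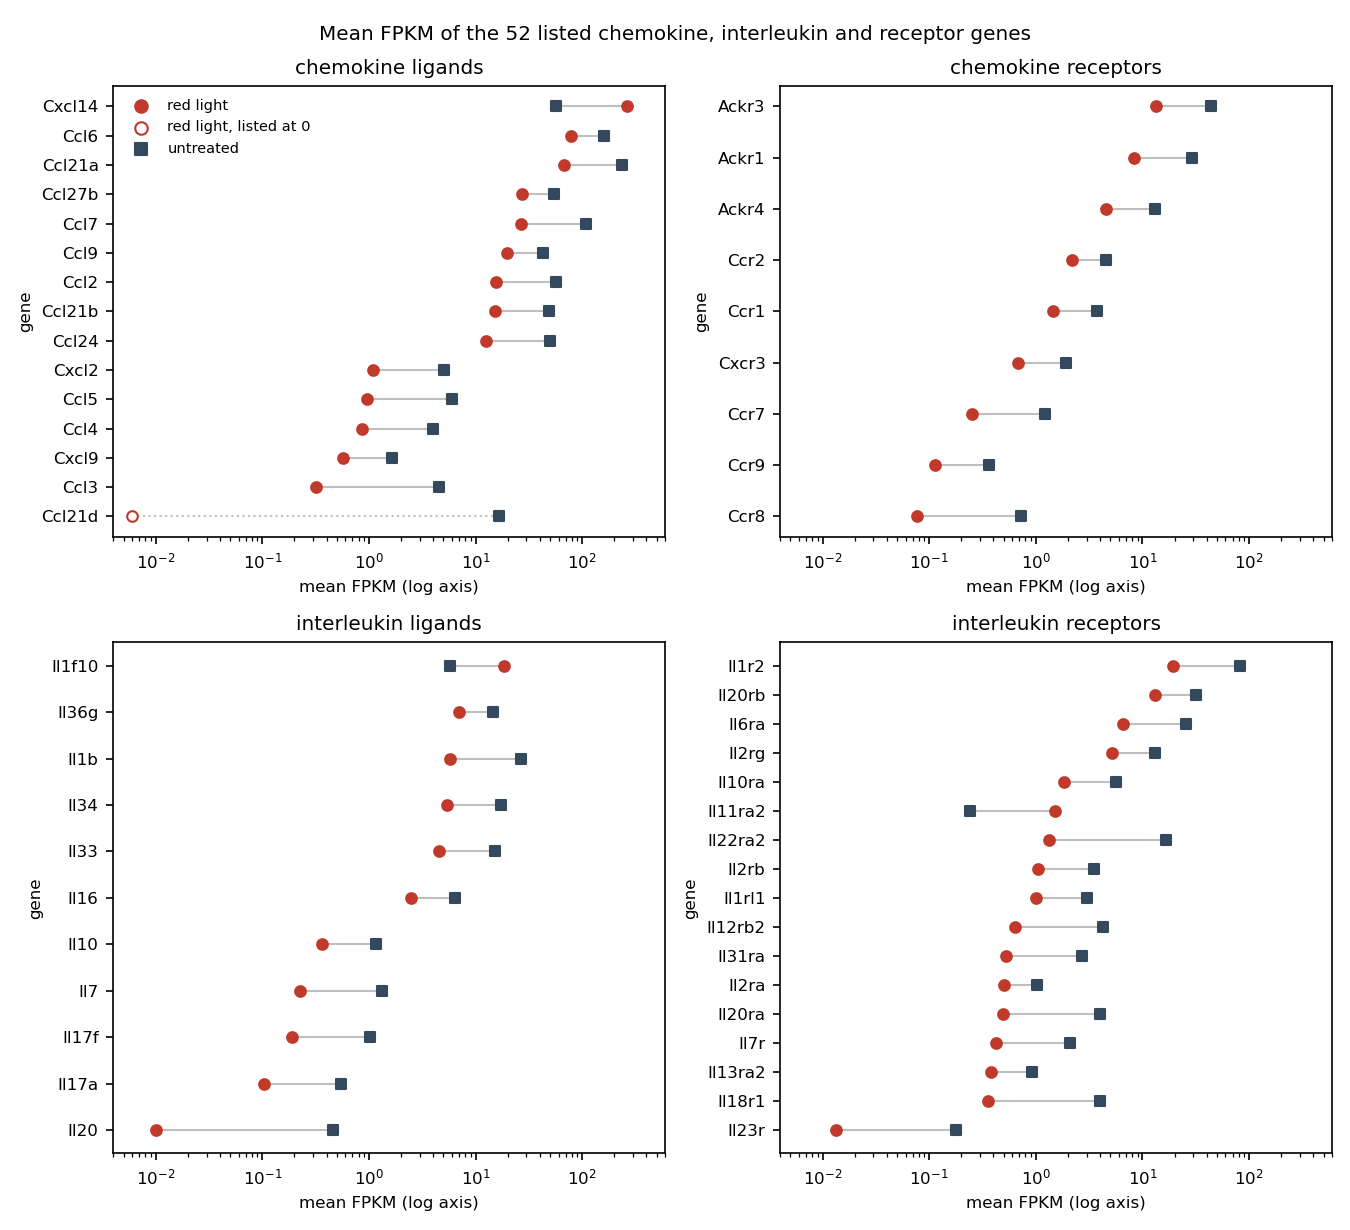
Mean FPKM of each of the 52 listed genes on a log axis, in 4 panels by class, with circles for red light skin and squares for untreated skin; the open circle marks Ccl21d, listed at 0 after red light and drawn at the left edge. Cxcl14, Il1f10 and Il11ra2 have the circle to the right of the square, and the other 49 have it to the left.

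The values of other genes moved in the same table. FPKM is a relative scale, on which abundant transcripts of a few genes lower all others, and 16 listed hair shaft and inner root sheath genes summed to 23586 FPKM after red light and 75.1 FPKM in untreated skin. Of 11 cell type marker lists, 9 had every listed gene lower, among them all 11 macrophage, 9 T cell, 9 dendritic and Langerhans cell, 9 endothelial and 10 skeletal muscle genes. No listed marker was at 0 in either group. The epidermal keratin Krt10 stood at 379.9 FPKM in red light skin and 1600 FPKM in untreated skin, so this marker of the labelled tissue was abundant in both. Of the 4 listed keratinocyte markers 3 were lower, and the cornified envelope gene Ivl was higher, at 73.3 FPKM in red light skin and 23.7 FPKM in untreated skin. The part of the hair transcripts and of cell makeup in the differences below was not tested.

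The 3 higher members were a chemokine, an interleukin and a receptor chain. Cxcl14, a chemokine that epithelial cells of the skin make constantly, averaged 262 FPKM in red light skin and 56.2 FPKM in untreated skin, or 4.65-fold higher. It was the most abundant member after red light, where it held 49.5% of the summed FPKM of the chemokine ligands, against 6.60% in untreated skin. Il1f10 encodes interleukin-38, a member of the interleukin-1 family regarded as an antagonist of the interleukin-36 receptor, and averaged 18.3 FPKM after red light and 5.72 FPKM in untreated skin, or 3.20-fold higher. It was the most abundant listed interleukin after red light, with 41.2% of the summed FPKM of the 11 interleukins, against 6.34% in untreated skin. Il11ra2, a mouse copy of the interleukin-11 receptor chain, averaged 1.52 FPKM after red light and 0.243 FPKM in untreated skin, or 6.26-fold higher, a log2 ratio of 2.65 that was 1.02 with 1 FPKM added to both means. That value is uncertain, because its annotated coding sequence differed from that of Il11ra1 at 13 of 1296 bases, and 59.2% of its stretches of 50 bases also occurred in Il11ra1 (GENCODE M21).

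Of 15 chemokine ligands 14 were lower, and the median over all 15 was 3.66-fold lower (log2 −1.87). Among those that attract monocytes and other myeloid cells, Ccl6, a rodent chemokine made by macrophages, averaged 78.9 FPKM in red light skin and 159 FPKM in untreated skin, and its relative Ccl9 averaged 19.7 FPKM in red light skin and 43.1 FPKM in untreated skin. These 2 were 2.02-fold and 2.18-fold lower, near the limit of about 2-fold below which genes are not listed. The summed macrophage markers stood at 669 FPKM after red light and 1657 FPKM in untreated skin, or 2.48-fold lower. Ccl2 and Ccl7, which recruit monocytes through CCR2, were lower by more. Ccl2 averaged 15.5 FPKM in red light skin and 56.8 FPKM in untreated skin, 3.66-fold lower, and Ccl7 averaged 26.8 FPKM in red light skin and 109 FPKM in untreated skin, 4.06-fold lower. Ccl24, an eosinophil attractant, averaged 12.4 FPKM in red light skin against 50.4 FPKM in untreated skin, 4.07-fold lower.

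The inflammatory chemokines Ccl3, Ccl4 and Ccl5 included the largest finite difference among the chemokine ligands. Ccl3 averaged 0.317 FPKM in red light skin and 4.54 FPKM in untreated skin, 14.3-fold lower. Ccl5, which T cells and other leukocytes make, averaged 0.960 FPKM after red light against 6.01 FPKM in untreated skin, 6.26-fold lower, and Ccl4 averaged 0.863 FPKM in red light skin against 3.97 FPKM in untreated skin, 4.59-fold lower. All 3 were under 1 FPKM after red light, and adding a pseudocount of 1 FPKM to both means shrank the log2 ratio of Ccl3 to −2.07, against −3.84 without it, and that of Ccl4 to −1.41, against −2.20. The neutrophil attractant Cxcl2 averaged 1.09 FPKM in red light skin and 5.09 FPKM in untreated skin, 4.66-fold lower. Cxcl9, which interferon-gamma induces and which draws T cells through CXCR3, averaged 0.567 FPKM in red light skin and 1.64 FPKM in untreated skin, 2.89-fold lower, with a log2 ratio of −1.53, or −0.75 with the pseudocount.

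**Figure D2:**
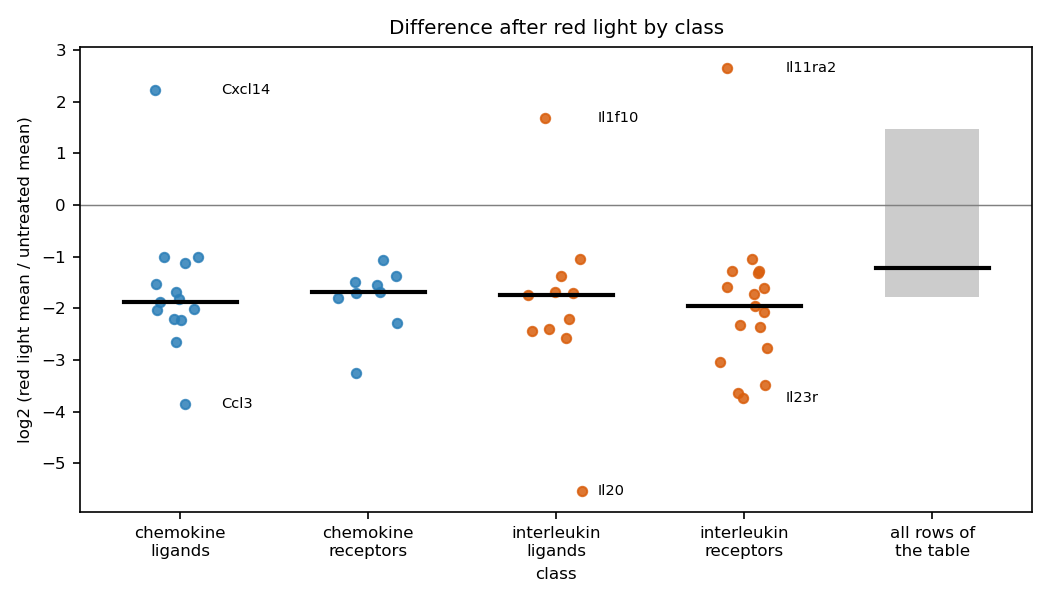
Log2 ratio of the red light mean to the untreated mean, with 1 point per gene by class and a black bar at the class median; the grey box spans the range between the quartiles of all rows of the table with its median. Ccl21d, at 0 after red light, has no point. Without a pseudocount the class medians lie between −1.95 and −1.68, below the −1.21 of all rows, and 3 points lie above 0.

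The CCR7 ligands guide dendritic cells and T cells into lymphatic vessels, whose endothelium secretes them. Ccl21a averaged 67.2 FPKM in red light skin and 236 FPKM in untreated skin, where it was the most abundant member. Ccl21b averaged 15.3 FPKM in red light skin against 48.7 FPKM in untreated skin, and Ccl21d was listed at 0 after red light and at 16.6 FPKM in untreated skin. These single values are uncertain because the genes are near-identical copies: the coding sequences of Ccl21b and Ccl21d had 0 differences over 399 bases, and both differed from Ccl21a by T84A and C194T, counted from the first base of the start codon with the Ccl21a base first. Summed, the 3 copies stood at 82.4 FPKM after red light and 302 FPKM in untreated skin, 3.66-fold lower. The 60 bases of coding sequence around the second difference, in capitals, show how little separates them (GENCODE M21, in which Ccl21d carries the name Gm21541; bases 164 to 223 of the coding sequence):
Ccl21a: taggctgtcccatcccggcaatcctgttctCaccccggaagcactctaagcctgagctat
Ccl21b: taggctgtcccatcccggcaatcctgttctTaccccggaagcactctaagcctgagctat
Ccl21d: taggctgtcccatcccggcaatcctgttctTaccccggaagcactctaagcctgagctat
A read of this stretch distinguishes Ccl21a from the other copies by 1 base and does not separate Ccl21b from Ccl21d. Ccl27b is a copy of the keratinocyte chemokine gene Ccl27a, which attracts skin-homing T cells, and averaged 27.2 FPKM in red light skin and 54.6 FPKM in untreated skin, 2.01-fold lower. Of its stretches of 50 coding bases, 40.5% also occurred in Ccl27a. In the order of protein-coding genes in RefSeq (GRCm38.p6), Ccl27b and Il11ra2 are overlapping neighbours on chromosome 4, which also holds the Ccl21 copies; their annotated coding sequences lie on opposite strands, and strand-specific counting is not stated. Without these 5 members, 45 were lower and 2 higher.

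All 9 chemokine receptors were lower, with a median of 3.21-fold (log2 −1.68). The atypical receptors, which signal little and take chemokines out of circulation, were the most abundant. Ackr3, a scavenger of CXCL12, averaged 13.4 FPKM in red light skin and 43.6 FPKM in untreated skin, 3.25-fold lower. Ackr1, a chemokine carrier of venules and red cells, averaged 8.41 FPKM after red light against 29.2 FPKM in untreated skin, 3.47-fold lower, and Ackr4, which scavenges CCR7 ligands, averaged 4.53 FPKM in red light skin against 13.2 FPKM in untreated skin, 2.92-fold lower. The listed endothelial markers had a median of 2.85-fold lower and summed to 74.8 FPKM in red light skin and 220.6 FPKM in untreated skin. The mast cell markers (median 3.04-fold lower) and all lower rows (median 3.09-fold) lay as near, so these folds single out no cell type.

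The 6 signalling receptors were low in both groups, at most 2.18 FPKM after red light and 4.55 FPKM in untreated skin, both for the monocyte receptor Ccr2, which was 2.09-fold lower. Ccr1, a receptor of monocytes and neutrophils, averaged 1.45 FPKM in red light skin and 3.78 FPKM in untreated skin, 2.61-fold lower. Cxcr3, a receptor of effector T cells, averaged 0.683 FPKM in red light skin and 1.93 FPKM in untreated skin, 2.82-fold lower. Ccr7, carried by migrating dendritic cells and naive T cells, averaged 0.250 FPKM after red light against 1.21 FPKM in untreated skin, 4.85-fold lower. The median was 4.82-fold for the 9 listed dendritic and Langerhans cell markers and 3.83-fold for the 9 listed T cell markers. It was 5.08-fold for the 3 listed B and plasma cell markers and 4.29-fold for the 4 listed neutrophil markers, so the fold of Ccr7 singles out no cell type. With 1 FPKM added to both means, the log2 ratio was −0.82 in Ccr7, against −2.28 without it, and −0.80 in Cxcr3. Ccr8, found on skin-resident and regulatory T cells, was 9.57-fold lower, at 0.0767 FPKM in red light skin and 0.733 FPKM in untreated skin. Ccr9, a receptor of gut-homing lymphocytes, stood at 0.113 FPKM after red light and 0.363 FPKM in untreated skin. For Ccr8 and Ccr9, both under 1 FPKM in both groups, the folds rest on very low values, and the pseudocount left them log2 ratios of −0.69 and −0.29.

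Of 11 interleukins 10 were lower, and the median over all 11 was 3.33-fold lower (log2 −1.74). Il1b, the inflammatory cytokine that inflammasomes activate, averaged 5.79 FPKM in red light skin and 26.5 FPKM in untreated skin, 4.59-fold lower, and was the most abundant listed interleukin in untreated skin. Il33, an alarm signal held in nuclei of epithelial and stromal cells, averaged 4.55 FPKM after red light against 15.1 FPKM in untreated skin, 3.33-fold lower. Il36g, which keratinocytes release in inflamed skin, averaged 7.02 FPKM in red light skin against 14.5 FPKM in untreated skin, 2.06-fold lower. Thus the interleukin-1 family held both directions, with Il1f10 higher and the other 3 listed ligands lower.

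Il34, the keratinocyte cytokine on which Langerhans cells depend, averaged 5.36 FPKM in red light skin and 17.4 FPKM in untreated skin, 3.24-fold lower. Its receptor gene Csf1r stood at 33.8 FPKM in red light skin and 92.2 FPKM in untreated skin, and the Langerhans cell gene Cd207 at 3.48 FPKM in red light skin and 12.3 FPKM in untreated skin. Il7, which sustains T cells, averaged 0.223 FPKM after red light against 1.33 FPKM in untreated skin, 5.97-fold lower. Il16, a T cell attractant that binds CD4, averaged 2.47 FPKM in red light skin and 6.43 FPKM in untreated skin, 2.61-fold lower. The remaining interleukins were near or below 1 FPKM in untreated skin. Il17f and Il17a are products of skin T cells that act on keratinocytes. Il17f averaged 0.190 FPKM after red light and 1.03 FPKM in untreated skin, 5.40-fold lower, and Il17a averaged 0.103 FPKM after red light and 0.543 FPKM in untreated skin, 5.26-fold lower. The anti-inflammatory Il10 averaged 0.360 FPKM in red light skin against 1.16 FPKM in untreated skin, 3.21-fold lower. Il20, which stimulates keratinocytes, had the largest finite ratio of all members, 46-fold lower, but at 0.010 FPKM in red light skin and 0.460 FPKM in untreated skin; its log2 ratio was −5.52, or −0.53 once 1 FPKM was added to both means. The same pseudocount gave log2 ratios of −0.93 for Il7, −0.77 for Il17f, −0.67 for Il10 and −0.48 for Il17a, against −2.58, −2.43, −1.68 and −2.39 without it.

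Of 17 interleukin receptors 16 were lower, and the median over all 17 was 3.87-fold lower (log2 −1.95). No order of the classes is read from these medians: without a pseudocount that of the interleukin receptors was the lowest, but with 1 FPKM added to both means it was −1.22, above the −1.61 of the chemokine ligands, and with 0.1 FPKM it was −1.64, above their −1.87. The decoy receptors, which bind a cytokine without passing on its signal, included the most abundant. Il1r2, the decoy for interleukin-1, averaged 19.5 FPKM in red light skin and 82.3 FPKM in untreated skin, 4.23-fold lower. Il22ra2 encodes the secreted interleukin-22 binding protein and averaged 1.34 FPKM after red light and 16.7 FPKM in untreated skin. At 12.5-fold lower, it had the largest ratio among members of at least 10 FPKM in untreated skin that had a value above 0 after red light. Il13ra2, the decoy for interleukin-13, averaged 0.380 FPKM after red light against 0.920 FPKM in untreated skin, 2.42-fold lower.

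Il20rb and Il20ra, the chains that pair to bind interleukin-20, differed unequally. Il20rb averaged 13.1 FPKM in red light skin and 31.9 FPKM in untreated skin, 2.44-fold lower, whereas Il20ra averaged 0.490 FPKM in red light skin and 4.04 FPKM in untreated skin, 8.24-fold lower. Il6ra, the interleukin-6 binding chain, averaged 6.55 FPKM after red light against 25.4 FPKM in untreated skin, 3.87-fold lower. Il31ra, a receptor of the itch cytokine interleukin-31, averaged 0.530 FPKM after red light against 2.74 FPKM in untreated skin, 5.16-fold lower. Il10ra, the interleukin-10 binding chain, averaged 1.85 FPKM in red light skin and 5.66 FPKM in untreated skin, 3.05-fold lower.

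Receptor chains carried by lymphocytes spanned a wide range of ratios. Il2rg, the chain shared by the receptors of interleukin-2, interleukin-7 and related cytokines, averaged 5.24 FPKM in red light skin and 13.04 FPKM in untreated skin, 2.49-fold lower, and its partner Il2rb averaged 1.05 FPKM in red light skin and 3.50 FPKM in untreated skin, 3.32-fold lower. Il2ra, the high-affinity chain of activated and regulatory T cells, averaged 0.50 FPKM in red light skin against 1.03 FPKM in untreated skin, 2.05-fold lower. Il7r, which T cells need to survive, averaged 0.420 FPKM in red light skin and 2.09 FPKM in untreated skin, 4.98-fold lower. Il18r1, the interleukin-18 binding chain, was 11.2-fold lower, at 0.357 FPKM in red light skin and 3.99 FPKM in untreated skin, while its neighbour Il1rl1, the interleukin-33 receptor, was 3-fold lower, at 1 FPKM in red light skin and 3 FPKM in untreated skin. Il12rb2, an interleukin-12 receptor chain, averaged 0.633 FPKM in red light skin and 4.29 FPKM in untreated skin, 6.78-fold lower. Its neighbour Il23r, the interleukin-23 receptor chain of interleukin-17-producing cells, stood at 0.0133 FPKM after red light and 0.177 FPKM in untreated skin, 13.3-fold lower at levels under 1 FPKM in both groups. Many of these receptors were under 1 FPKM after red light, and 1 FPKM added to both means brought the log2 ratio of Il18r1 to −1.88, against −3.48, that of Il20ra to −1.76, against −3.04, and that of Il12rb2 to −1.70, against −2.76. It also brought Il31ra to −1.29, against −2.37, Il2rb to −1.13, against −1.73, Il7r to −1.12, against −2.32, and Il1rl1 to −1, against −1.58. With it Il13ra2 stood at −0.48, against −1.28, Il2ra at −0.43, against −1.04, and Il23r at −0.22, against −3.73. The 9 listed T cell markers summed to 8.91 FPKM in red light skin and 29.5 FPKM in untreated skin.

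Set side by side, ligands and receptors had close counts and medians. Of 26 ligands 24 were lower, with a median of 3.59-fold, and of 26 receptors 25 were lower, with a median of 3.29-fold. Chemokines with their receptors were lower in 23 of 24 cases (median 3.36-fold), and interleukins with theirs in 26 of 28 (median 3.59-fold). These medians use no pseudocount. With 1 FPKM added to both means, chemokines with their receptors had the larger median fold, so no order is read from them. The summed levels separated more. Ligands summed to 573 FPKM in red light skin and 942 FPKM in untreated skin, 1.64-fold lower, and receptors to 85.6 FPKM in red light skin and 299.6 FPKM in untreated skin, 3.50-fold lower. Part of that gap came with Cxcl14, without which the ligands summed to 311 FPKM in red light skin and 886 FPKM in untreated skin, 2.85-fold lower. The chemokine ligands alone summed to 528 FPKM in red light skin and 852 FPKM in untreated skin, 1.61-fold lower, and without Cxcl14 to 267 FPKM in red light skin and 796 FPKM in untreated skin, 2.98-fold lower. The 11 interleukins summed to 44.4 FPKM after red light and 90.2 FPKM in untreated skin, 2.03-fold lower. That sum includes the higher Il1f10, which held 41.2% of it after red light and 6.34% in untreated skin. The 17 interleukin receptors summed to 54.5 FPKM after red light and 201 FPKM in untreated skin, 3.69-fold lower.

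**Figure D3:**
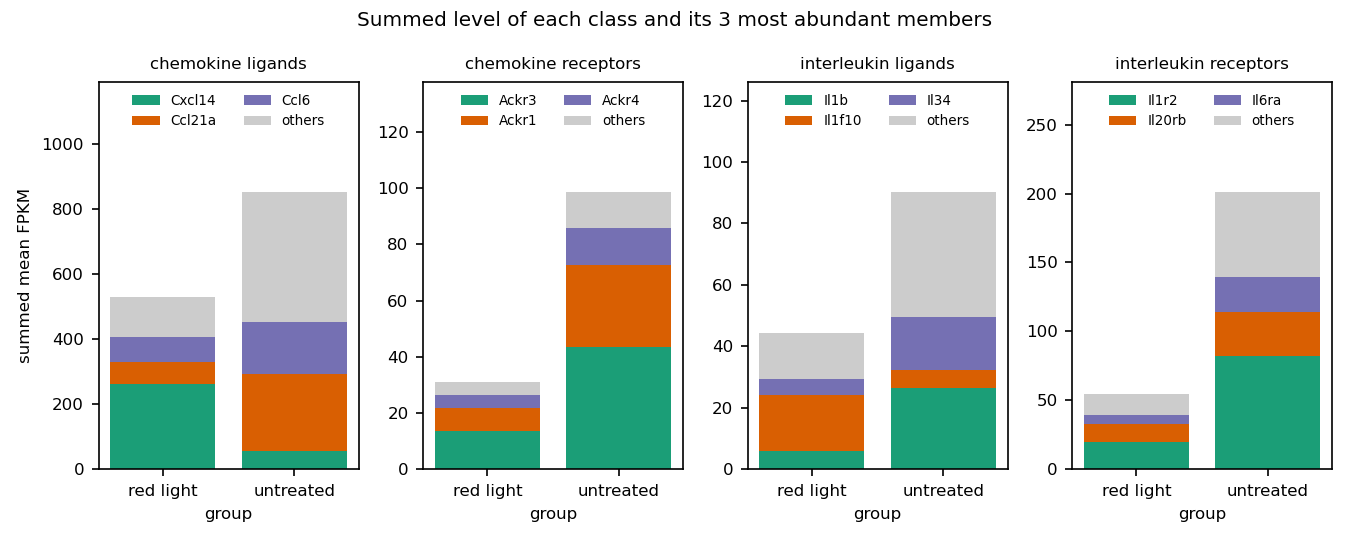
Summed mean FPKM of each class in red light skin (left bar) and untreated skin (right bar), with the 3 most abundant members of each class in colour and the rest in grey; each panel has its own scale from 0. Cxcl14 takes 49.5% of the red light bar of the chemokine ligands and Il1f10 takes 41.2% of that of the interleukins.

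In most of the ligand and receptor pairs set out here, the ligand had the larger fold without a pseudocount. Ccl2 and Ccl7 were 3.66-fold and 4.06-fold lower, against 2.09-fold for their receptor Ccr2. Ccl5 was 6.26-fold lower, against 2.61-fold for Ccr1. The ligand was also ahead for Il7 and Il7r (5.97-fold and 4.98-fold) and Il1b and Il1r2 (4.59-fold and 4.23-fold). The same held for Ccl21a and Ackr4 (3.52-fold and 2.92-fold). Cxcl9 and Cxcr3 (2.89-fold and 2.82-fold lower), Il10 and Il10ra (3.21-fold and 3.05-fold) and Il33 and Il1rl1 (3.33-fold and 3-fold) lay close together, whereas Ccl3 and Ccr1 (14.3-fold and 2.61-fold) lay far apart. The ligand had the smaller fold for Ccl21a and Ccr7 (3.52-fold and 4.85-fold), Ccl21b and Ccr7 (3.20-fold and 4.85-fold), and Ccl6 and Ccr1 (2.02-fold and 2.61-fold). The single values of the Ccl21 copies are uncertain. The interleukin-20 pairs also lay apart, but on the very low level of Il20. A pseudocount of 1 FPKM changed many of these orders. The order held for Ccl2 and Ccl7 with Ccr2, Ccl3 and Ccl5 with Ccr1, Ccl21a with Ackr4 and Il33 with Il1rl1. It reversed for Il7 and Il7r (log2 −0.93 and −1.12), Il10 and Il10ra (−0.67 and −1.22) and Cxcl9 and Cxcr3 (−0.75 and −0.80). Il1b and Il1r2 were level at −2.02. The other pairs named here also reversed, so no order is read from them.

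Other chemokine, cytokine, growth factor and receptor genes that the symbol rule leaves out were also mostly lower. Of 43 such genes 19 (44.2%) were in the table, against 18.6% of all protein-coding symbols. Of the 19, 18 were lower, against 61.3% of all rows, with a median of 2.98-fold. The largest differences were those of the neurotrophic cytokine Cntf, at 0.797 FPKM in red light skin and 6.23 FPKM in untreated skin (7.82-fold lower), of Csf3, the neutrophil growth factor, at 0.170 FPKM in red light skin and 1.20 FPKM in untreated skin (7.08-fold lower), and of Flt3, a receptor of dendritic cell precursors, at 0.307 FPKM in red light skin and 1.66 FPKM in untreated skin (5.40-fold lower). The exception was Cntfr, the receptor chain for CNTF, at 36.5 FPKM in red light skin and 12.9 FPKM in untreated skin, 2.84-fold higher. Of 27 JAK, STAT, SOCS and lineage factor genes 6 (22.2%) were listed, near the 18.6% of all protein-coding symbols. Of these 6, 5 were lower, against 61.3% of all rows, and no trend is read from so few genes. Socs2, Socs3 and Stat5b, all of cytokine signalling, had the largest differences among the 5, with Socs3 at 24.3 FPKM in red light skin and 63.9 FPKM in untreated skin, 2.63-fold lower, and Socs2 and Stat5b 3.40-fold and 2.52-fold lower. Gata3, a transcription factor of T cells that follicle and epidermal cells also use, stood at 35.9 FPKM in red light skin and 14.2 FPKM in untreated skin, 2.52-fold higher. Of 29 MYD88 and NF-kappaB genes 6 (20.7%) were listed, also near the 18.6% of all protein-coding symbols. All 6 were lower, against 61.3% of all rows, with a median of 3.16-fold. The feedback inhibitors Tnfaip3 and Nfkbia and the nuclear regulator Nfkbiz had the largest differences. In the order Tnfaip3, Nfkbiz and Nfkbia these genes were 3.53-fold, 3.44-fold and 3.33-fold lower, and Nfkbia stood at 35.3 FPKM in red light skin and 117 FPKM in untreated skin.

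**Figure D4:**
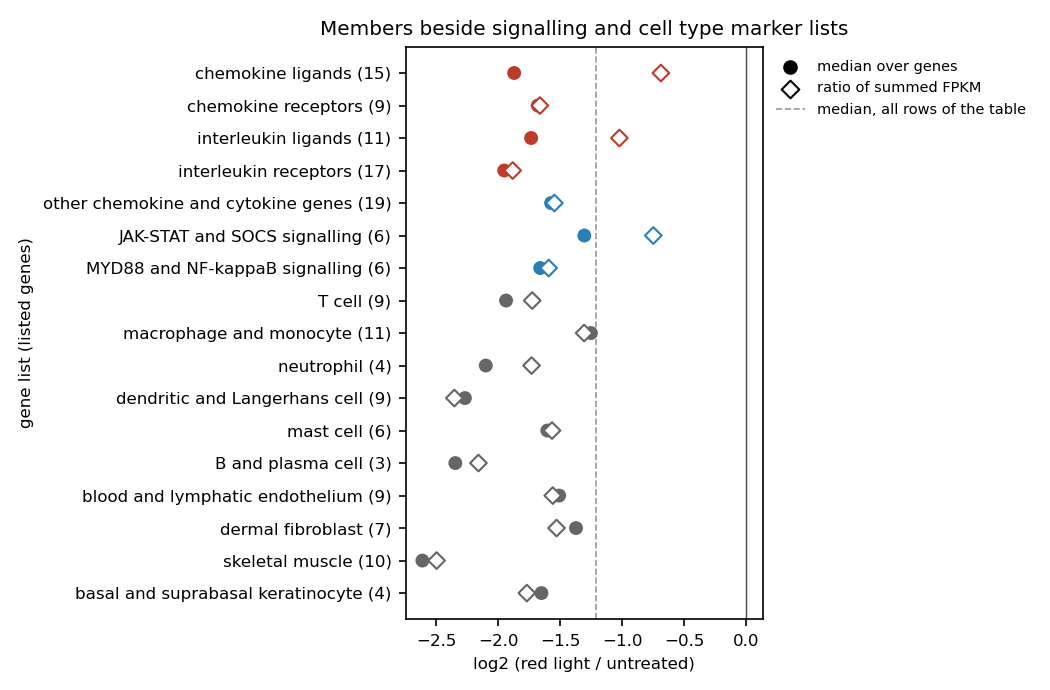
Log2 ratio of red light to untreated for the 4 classes (red), 3 signalling lists (blue) and 10 cell type marker lists (grey), with filled circles for the median over listed genes, open diamonds for the ratio of summed FPKM, and gene numbers in brackets; hair genes are left out because of their scale. The diamonds of the chemokine ligands (−0.69) and the interleukins (−1.02) lie to the right of their medians, and every other immune list lies at or below −1.25 on both measures except JAK-STAT and SOCS signalling.

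The members lie on 15 chromosomes, with 9 on chromosome 1 and 8 on chromosome 11. On chromosome 11, Ccl5, Ccl9, Ccl6, Ccl3 and Ccl4 follow each other without another protein-coding gene between them in RefSeq (GRCm38.p6). Their ratios nevertheless ran from 2.02-fold lower for Ccl6 to 14.3-fold lower for Ccl3. The annotated gene spans of Ccl3 and Ccl4 overlap there, and whether their exons overlap was not checked. Ccl2 and Ccl7, also neighbours, had like ratios of 3.66-fold and 4.06-fold.

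Promoter sequences, from 250 bases before to 50 after the annotated start, were matched by symbol for 39 of the 52 members in RefSeq (GRCm38.p6). Both strands were searched for the TATA box TATAAA, the AP-1 site TGANTCA, the STAT site TTCNNNGAA and the kappaB consensus. Counting genes with a match in any listed promoter, TATAAA was found in 10 of the 39 (25.6%) and in 15.7% of all 27025 genes with a promoter, and TGANTCA in 7 (17.9%) and 8.97% of all. TTCNNNGAA was found in 6 (15.4%) and 9.55% of all, and the kappaB consensus also in 6 (15.4%) and 9.55% of all. A match is a run of letters and not a shown binding site. Cxcl14 and Il1f10, the higher members other than the duplicated Il11ra2, and the lower inflammatory genes Il1b and Cxcl2 are printed to set both directions side by side, with matches in capitals and positions of the RefSeq table, since no build is named for the deposited values:
Cxcl14, chr13:56296502-56296801, minus strand: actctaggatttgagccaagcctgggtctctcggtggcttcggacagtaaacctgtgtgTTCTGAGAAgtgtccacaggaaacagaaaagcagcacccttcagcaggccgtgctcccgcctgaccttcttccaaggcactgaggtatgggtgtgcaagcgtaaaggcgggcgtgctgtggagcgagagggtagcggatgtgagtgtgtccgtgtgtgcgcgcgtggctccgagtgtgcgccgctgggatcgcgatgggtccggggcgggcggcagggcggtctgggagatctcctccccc
Il1f10, chr2:24290946-24291245, plus strand: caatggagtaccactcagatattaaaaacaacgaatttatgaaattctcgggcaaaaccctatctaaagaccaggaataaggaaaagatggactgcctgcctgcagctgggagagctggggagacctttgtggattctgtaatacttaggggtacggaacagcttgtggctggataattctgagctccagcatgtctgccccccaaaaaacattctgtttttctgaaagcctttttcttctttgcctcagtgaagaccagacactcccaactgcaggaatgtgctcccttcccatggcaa
Il1b, chr2:129371090-129371389, minus strand: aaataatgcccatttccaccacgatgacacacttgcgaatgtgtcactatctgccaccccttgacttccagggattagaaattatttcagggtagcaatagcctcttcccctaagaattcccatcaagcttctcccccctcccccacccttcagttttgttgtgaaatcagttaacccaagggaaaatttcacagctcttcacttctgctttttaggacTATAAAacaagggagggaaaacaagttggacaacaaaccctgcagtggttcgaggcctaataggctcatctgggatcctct
Cxcl2, chr5:90903649-90903948, plus strand: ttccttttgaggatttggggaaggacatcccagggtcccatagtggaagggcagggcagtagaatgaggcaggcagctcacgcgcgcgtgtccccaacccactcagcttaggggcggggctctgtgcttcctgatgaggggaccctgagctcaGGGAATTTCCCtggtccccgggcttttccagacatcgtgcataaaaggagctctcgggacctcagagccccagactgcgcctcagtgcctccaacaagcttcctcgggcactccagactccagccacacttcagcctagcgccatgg
Counting from the start, with negative positions before it, the Cxcl14 window holds TTCNNNGAA at −191 to −183, the Il1b window a TATAAA at −31 to −26, and the Cxcl2 window overlapping matches to the kappaB consensus, at −97 to −88 on the plus strand of the printed sequence and at −96 to −87 on the other. None of the 4 motifs was found in the Il1f10 window.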

How the data were processed

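Polyadenylated RNA of dorsal skin was sequenced, per the labels' protocols (Trizol extraction, oligo(dT) beads, NEBNext Ultra RNA kit). The authors deposited 1 table with a mean FPKM per group and an UP or DOWN label, per the file headers. DESeq2 1.40.2, R 4.3.1, RSEM and Bowtie2 2.2.8 are listed in the submitters' processing notes, with no role given for each, and no source used here names the genome build. Every value is thus the authors' mean. FPKM values carry no depth, so no interval or floor is given.

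Members were found by symbol, and direction is the sign of the red light mean minus the untreated mean; for 0 of the 52 members did the authors' label disagree. Of 6 rows whose means disagree with the order of the table, 0 are members. Ratios use no pseudocount, and Ccl21d, at 0, ranks below all others in medians. The members, classes and lists were chosen with earlier results of these data known. Every member is named; of the signalling lists, the 3 largest ratios and those higher, while Krt10, Ivl, Cd207 and Csf1r were chosen after their values were seen. No tests were run, as each group has 1 value; counts and medians were checked on simulated data. Coding sequences were aligned globally with Biopython 1.88 and compared in windows of 50 bases. Alternatives were pseudocounts of 1 and 0.1, a minimum of 1 FPKM, a log2 ratio of at least 2 and leaving out single members. Python 3.11.15, numpy 2.4.6, pandas 2.3.3 and matplotlib 3.10.9 were used.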

Additional observations from a re-analysis of the deposited data

How the results depend on the processing

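A count or log2 value was called moved when it differed by more than 1.5-fold, and of 46 alternatives 11 moved and 0 changed direction, which a pseudocount added to both means cannot do. With a log2 ratio of at least 2, fewer genes remain by construction: 22 lower members in all, 7 chemokine ligands, 2 chemokine receptors, 5 interleukins with 0 higher, and 8 interleukin receptors. Low genes lose most of their ratio under a pseudocount of 1, which gave median log2 ratios of −1.15 for all members, −0.82 for chemokine receptors, −0.93 for interleukins, −1.22 for interleukin receptors and −1.61 for chemokine ligands, the last within 1.5-fold of its value without it, and moved 23 of 51 single members; 0.1 moved 3. The log2 ratio of the summed chemokine ligands was −0.69, and −1.58 without Cxcl14. Leaving out the 5 members of the duplicated region, chosen after seeing the data, gave 45 lower and 2 higher members and a median of −1.80. All members were ligands or receptors, so leaving out others changed nothing. No paired analysis was possible because the table holds group means only, and no replicate could be left out for the same reason. Depth is unknown, so counting error in the 22 members under 1 FPKM after red light cannot be given.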
